A study of Mus musculus with 33 samples.

Results

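The genes described here make, take up, move, store and export cholesterol, or control those steps. A list of 33 mouse genes was taken, and each gene was represented by a probe set whose platform annotation gave exactly 1 symbol, and where a gene had several, the one brightest on average was taken. Of the 33 genes, 31 had such a probe set and were measured, among 18193 genes measured in all; Acat2 and Soat2 had none and are not analysed here. All 31 passed the filter on low signal, as did 13642 genes in all. They comprise 16 synthesis enzymes, 4 genes of SREBP control, 5 genes of uptake and movement, Lcat for esterification and 5 genes of LXR-driven export. Gene expression was measured on 33 Affymetrix mouse arrays, each from the liver of a mouse that had undergone a 70% partial hepatectomy, the removal of most of the liver. Livers were taken on day (d) 0.25, day 0.5 and day 0.75 after surgery, on days 1, 1.5, 2 and 3, later on days 4, 7 and 14, and at 0 d, with 3 biological replicates per time. Strain, sex, age, feeding and time of day are not given in the labels used here, and no sham-operated group is named, so the operation and the loss of tissue cannot be told apart. The arrays of days 0.25, 0.5, 0.75 and 1.5 are numbered in a block apart from those of the other times, 0 d included. Whether the blocks were processed apart is not given in the labels used here. A difference between blocks cannot be told apart from time where a comparison crosses them.

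Cells make cholesterol from acetyl-CoA through mevalonate and the isoprenoids, then through squalene and lanosterol, and the liver is a main site of this pathway. The transcription factor SREBP2 drives the genes of synthesis and uptake when sterols are scarce: the escort protein SCAP carries it to the Golgi for cleavage, and the INSIG proteins hold SCAP back when sterols are plentiful. The nuclear receptor LXR works on the other side of the balance, where oxysterols activate it to raise genes of cholesterol export.

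The median log2 signal of an array was 5.32 to 5.38, and albumin (Alb) lay between 14.60 and 14.80 on the 33 arrays, as in liver. Marker genes of other cells were also followed. The fat cell hormone Adipoq was raised on 4 arrays, at 5.80 on 0.25 d replicate 2, 5.86 on 2 d replicate 3, 7.07 on 7 d replicate 3 and 5.38 on 0 d replicate 3, while the fat cell hormone Lep stayed between 3.18 and 3.72 on every array, below the filter value of 5. Of 3 enterocyte markers, Vil1 lay below 5 on every array and Npc1l1 between 4.77 and 5.32, while Fabp2, a fatty acid carrier, had 10.64, 11.35 and 11.32 at 0.25 d, against 10.23, 10.20 and 10.59 at 0 d. Of the 2 that were tested 1 rose at 0.25 d (17.2% of all genes), and the mean of the 3 lay between 6.80 and 7.05 at 0.25 d, against 6.57 and 6.87 at 0 d. The part of such cells in the results was not tested. The summed signals here come from whole tissue, in which fewer cells of a type and less RNA per cell cannot be told apart. Signals are RMA values on a log2 scale, so a difference of 1 is a 2-fold change. Differences are given as later minus 0 d with the standard error of the limma fit, and rises and falls are those with an adjusted p under 0.05. All comparisons with 0 d share the same 3 arrays at 0 d.

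Nearly every gene of the set changed at some time. Of the 31, 30 varied over the 11 times by the moderated F-test, where 69.4% of all genes did. The exception was Srebf2, which encodes SREBP2 (adjusted p = 0.198), and with the mean of the probe sets all 31 passed. A dimmer Srebf2 probe set rose at 0.75 d (0.61, adjusted p = 0.0254) and 2 d (0.60, adjusted p = 0.0285). The number of genes past the test was highest at 0.25 d and smaller later. At 0.25 d 3 rose and 24 fell, where 17.2% of all genes rose and 28.8% fell. At 0.5 d 3 rose and 12 fell (15.8% and 19.4% of all genes). At 0.75 d 3 rose and 4 fell (9.84% and 12.7%). At later times the numbers that rose and fell were 8 and 5 at 1 d (8.16% and 9.55%), 5 and 4 at 1.5 d (8.33% and 11.7%), 8 and 4 at 2 d (11% and 11.6%), and 5 and 3 at 3 d (10.2% and 10.9%). None passed at 4 d, where 1.88% of all genes rose and 0.975% fell, at 7 d (0.125% and 0.0586%) or at 14 d (0.0147% and 0%). At an unadjusted p under 0.05, 6 genes passed at 4 d, 1 at 7 d and 0 at 14 d, and the lowest adjusted p at 4 d was 0.0782, for Ebp.

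Single arrays moved these counts. At 0.5 d the count of 15 became 23 without 0.5 d replicate 1 and 9 without 0.5 d replicate 3. At 0.75 d the count of 7 became 4 without either replicate 1 or replicate 2 of 0.75 d or of 0 d. At 1 d the count of 13 became 5 without 1 d replicate 2, 4 without 1 d replicate 3, and 5 without 0 d replicate 1 or 2. At 1.5 d the count of 9 became 3 without 1.5 d replicate 1, 2 without 1.5 d replicate 3, 3 without 0 d replicate 1 and 2 without 0 d replicate 2. At 2 d the count of 12 became 4 without 2 d replicate 1, 6 without 2 d replicate 2 and 5 without 0 d replicate 1. At 3 d the count of 8 became 3 without 3 d replicate 1 or 2, 4 without 3 d replicate 3, 3 without 0 d replicate 1 and 2 without 0 d replicate 2. At 0.25 d the count stayed between 23 and 28 whichever array was left out. More genes fell than rose at 0.25 d and 0.5 d under every setting that kept all arrays. At 2 d more rose than fell under every such setting. There, however, 2 rose and 2 fell without 2 d replicate 1, 3 and 3 without 2 d replicate 2, and 2 and 3 without 0 d replicate 1. At 0.75 d, 1 d, 1.5 d and 3 d, which direction held more genes depended on the setting. At 0.75 d the 3 rises and 4 falls became 7 and 4 with array weights. At 1.5 d the 5 rises and 4 falls became 4 and 5 with a common median, with array weights or without both 0 d replicate 3 and 14 d replicate 1. They became 3 and 4 with an intensity trend, and 5 and 5 with the replicate block or the filter at 7. At 1 d the 8 and 5 became 4 and 4 with the mean of the probe sets and 6 and 6 without those arrays. At 3 d the 5 and 3 became 3 and 4 without those arrays, 3 and 3 with the mean of the probe sets, and 5 and 5 with the replicate block or the filter at 7.

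**Figure D1:**
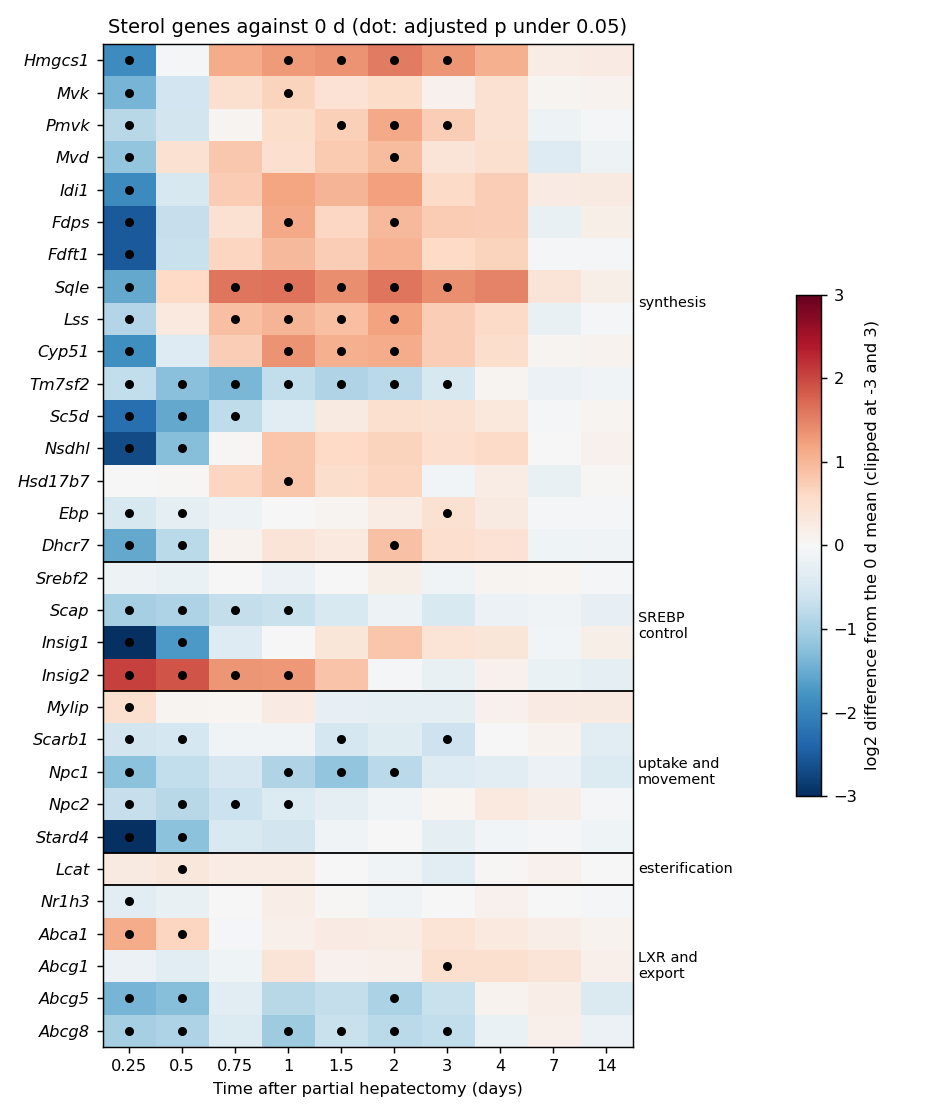
Log2 difference from the 0 d mean (colour, blue lower and red higher) for the 31 measured genes (rows, grouped by role) at the 10 later times in days (columns), with a dot where the adjusted p was under 0.05. The synthesis block is blue at 0.25 d and mostly red from 0.75 d to 4 d, while Tm7sf2 stays blue up to 3 d and Insig2 runs opposite to Insig1 at 0.25 d and 0.5 d.

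Synthesis enzymes fell together 0.25 d after surgery. Of the 16, 15 fell, 11 of them by at least 2-fold, and 0 rose, where 28.8% of all genes fell and 17.2% rose. The median difference was -1.53, where the median over all 13642 genes was -0.03. Nsdhl, a dehydrogenase that helps to remove methyl groups from early sterols, fell furthest. Its log2 signal was 7.18, 7.72 and 7.04 at 0.25 d, against 10.0041, 10.12 and 9.84 at 0 d. The groups lay far apart, and the difference was -2.67 ± 0.32 (adjusted p = 3.85e-07), a level 6.38-fold lower. Fdps, which makes farnesyl diphosphate, had 8.39, 8.79 and 8.04 at 0.25 d, against 10.66, 11.03 and 11.12 at 0 d (-2.53 ± 0.35, adjusted p = 3.10e-06). Fdft1, the squalene synthase at the entry to sterols proper, had 7.01, 8.18 and 7.22 at 0.25 d, against 9.62, 10.23 and 10.12 at 0 d. For both enzymes every 0.25 d liver lay more than 1 log2 unit below every 0 d liver. A dim Fdft1 probe set, with a mean signal of 5.55, rose by 0.31 at 0.25 d (adjusted p = 0.0368). Among the 31 other probe sets tested, that was the 1 call against 0 d opposite to a call of the probe set used.

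The fall ran along the whole route. Of the mevalonate enzymes, Hmgcs1, which condenses acetoacetyl-CoA with acetyl-CoA, differed by -1.89 ± 0.45, the kinases Mvk and Pmvk by -1.39 ± 0.24 and -0.83 ± 0.23, and the decarboxylase Mvd by -1.18 ± 0.33. A somewhat dimmer Mvk probe set (mean signal 7.09 beside 7.50) differed by -0.25 at 0.25 d and did not pass (adjusted p = 0.228). Among the sterol enzymes, Cyp51, the lanosterol demethylase, differed by -1.84 ± 0.35, and Sc5d, a sterol desaturase, by -2.26 ± 0.25 (adjusted p = 1.27e-07). Ebp, a sterol isomerase, had the smallest called fall, -0.48 ± 0.08 (adjusted p = 5.32e-05). Counting livers, 15 of the 16 enzymes had every 0.25 d liver below every 0 d liver, as did 29.4% of all genes. Hsd17b7, a keto reductase that acts with Nsdhl, was the 1 synthesis enzyme that did not pass, with 8.97, 9.23 and 9.15 at 0.25 d, against 9.17, 9.02 and 9.13 at 0 d. Its groups overlapped, and the difference was 0.01 ± 0.28. The calls for Sqle and Lss rested on single livers: Sqle, the squalene epoxidase, had an adjusted p of 0.0119 that became 0.0770 without 0.25 d replicate 1 and 0.0504 without 0 d replicate 2. Lss, the lanosterol synthase, lost its call without 0.25 d replicate 1 or 3 (adjusted p = 0.0859 and 0.0737) or without 0 d replicate 2 or 3 (0.0828 and 0.1002).

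Promoter windows of 300 bases, from 250 before to 50 after the annotated start, were available in RefSeq (build GRCm38.p6) for 24 of the 31 measured genes, 13 of them synthesis enzymes. The motif CCAAT, bound by NF-Y, a factor that works beside SREBP on many sterol genes, was searched on both strands. It occurred in all 13 synthesis enzymes with a window and in 42.3% of the 10959 genes tested on the arrays that have one. The sterol element TCACNCCAC occurred in 1 of the 13, Hmgcs1, 137 bases before the start, and in 1.44% of the genes tested. A match describes letters in the window and is no evidence of binding. Only the exact spelling given was searched, so the lack of a match does not show that a gene lacks a sterol element. The windows of Hmgcs1 and Mvk are shown because they hold the sterol element and the highest number of CCAAT motifs among these enzymes. Hmgcs1 lies on chromosome 13 (chr13:119690101-119690400, plus strand) and Mvk on chromosome 5 (chr5:114444019-114444318, plus strand). Capitals mark the CCAAT motifs, written ATTGG where they lie on the other strand, and the sterol element, which overlaps none of them. Mvk holds 5 CCAAT motifs, 173, 120, 67, 50 and 14 bases before the start.
Hmgcs1: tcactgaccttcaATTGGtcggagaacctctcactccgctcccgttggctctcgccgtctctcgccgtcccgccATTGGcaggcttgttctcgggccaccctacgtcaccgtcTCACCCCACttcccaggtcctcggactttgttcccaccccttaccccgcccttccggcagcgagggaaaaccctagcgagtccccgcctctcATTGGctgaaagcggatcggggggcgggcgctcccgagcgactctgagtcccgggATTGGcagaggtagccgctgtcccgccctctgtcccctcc
Mvk: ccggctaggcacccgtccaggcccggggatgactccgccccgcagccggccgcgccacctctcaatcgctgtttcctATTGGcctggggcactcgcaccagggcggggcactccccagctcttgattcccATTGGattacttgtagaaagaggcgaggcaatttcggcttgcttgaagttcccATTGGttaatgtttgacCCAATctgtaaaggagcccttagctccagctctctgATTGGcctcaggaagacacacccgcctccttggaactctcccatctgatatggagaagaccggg

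Between 0.25 d and 0.5 d the enzymes turned. Over the step, 13 genes of the whole set rose and 2 fell, where 16% and 5.25% of all genes did. Among the synthesis enzymes 11 rose and 1 fell, Tm7sf2 (-0.53 ± 0.16, adjusted p = 0.0187), a call lost without 0.5 d replicate 2 or 3 (0.0529 and 0.0759) or 0.25 d replicate 1 (0.0504). Sqle rose by 2.13 ± 0.48 over the step and Hmgcs1 by 1.84 ± 0.45. With only the 6 arrays of the step in the fit, 0 genes of the set passed. Under quantile normalization of the arrays the split over all genes was 1554 higher and 1023 lower in place of 2182 and 716, and 12 genes of the set rose and 2 fell. The same setting gave 3075 and 3151 over all genes at 0.25 d against 0 d, in place of 2340 and 3925, and 4 and 22 in the set.

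The 3 livers at 0.5 d did not behave alike. Hmgcs1 had 12.53, 10.30 and 10.42 at 0.5 d, against 10.44, 11.30 and 11.67 at 0 d. Replicate 1 of 0.5 d lay above every 0 d liver and the other two lay below every one, though close to the lowest. For all 16 synthesis enzymes replicate 1 had the highest signal of the 3. The median difference of the 16 from their 0 d means was 0.60 in replicate 1, -1.02 in replicate 2 and -0.81 in replicate 3. At 0.25 d these medians were -2.03, -1.19 and -1.83, and at 0.75 d they were 0.92, 0.80 and -0.09, with replicate 3 lowest in 15 of the 16. The 0.5 d mean therefore lies between livers on both sides of the 0 d level. Against 0 d, 5 of the 16 enzymes fell at 0.5 d and 0 rose, where 19.4% and 15.8% of all genes did. Tm7sf2 and Sc5d, at -1.26 ± 0.16 and -1.54 ± 0.25, kept their calls under every alternative tried, and Nsdhl differed by -1.28 ± 0.32. Without 0.5 d replicate 1, 14 genes of the set rose and 1 fell between 0.5 d and 0.75 d, in place of 2 rises, Mvk and Nsdhl, and 0 falls with it (1.23% and 1.06% of all genes). The 2 rises were lost without 0.5 d replicate 3 or without 0.75 d replicate 1 or 2, when 0 genes passed, and 5 passed without 0.25 d replicate 1.

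**Figure D2:**
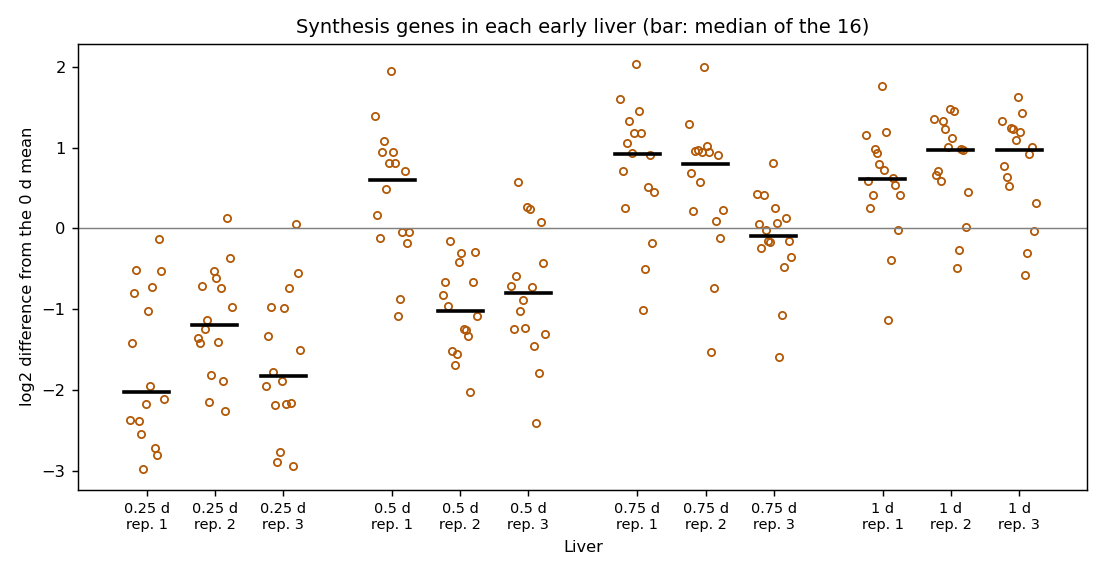
Log2 difference from the 0 d mean for each of the 16 synthesis enzymes (circles) in each of the 12 livers from 0.25 d to 1 d, with a bar at the median of the 16 in that liver. At 0.5 d the medians are 0.60, -1.02 and -0.81, and at 0.75 d they are 0.92, 0.80 and -0.09, so that livers of the same time differ by more than those of 1 d.

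From 1 d to 3 d part of the synthesis enzymes rose above 0 d. The number that rose was 7 at 1 d (8.16% of all genes), 5 at 1.5 d (8.33%), 8 at 2 d (11%) and 4 at 3 d (10.2%), while the 2 of 16 at 0.75 d, or 12.5%, lay near the 9.84% of all genes, and the medians over the 16 from 0.75 d to 3 d were 0.57, 0.84, 0.66, 0.96 and 0.54. The highest time mean fell at 2 d for 8 of the 16 and at 1 d for 6. Sqle had 10.71, 10.68 and 9.49 at 0.75 d and 10.45, 10.16 and 10.31 at 1 d, against 8.37, 9.05 and 8.63 at 0 d. Every liver of both later times lay above every 0 d liver, by 1.61 ± 0.48 on average at 0.75 d (adjusted p = 0.0171) and 1.62 ± 0.48 at 1 d (adjusted p = 0.0208). Hmgcs1 had 13.01, 12.90 and 12.20 at 2 d, against 10.44, 11.30 and 11.67 at 0 d (1.57 ± 0.45, adjusted p = 0.0127, a level 2.96-fold higher). Over the time course the mean of Hmgcs1 spanned an 11-fold range between 0.25 d and 2 d, that of Fdps a 12.6-fold range between 0.25 d and 1 d.

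Most of these rises depended on the livers included. At 1 d Cyp51 (1.36 ± 0.35, adjusted p = 0.00797) was the 1 synthesis enzyme whose rise passed under every alternative, and at 2 d it was Pmvk (1.13 ± 0.23, adjusted p = 0.000757). At 3 d it was Ebp, whose livers had 12.28, 12.37 and 12.40, against 11.90, 12.02 and 11.77 at 0 d (0.46 ± 0.08, adjusted p = 0.000353). The rise of Hmgcs1 at 2 d was lost if 2 d replicate 1 (adjusted p = 0.0596) was left out, and likewise without 0 d replicate 1 (0.0881), that of Sqle at 1 d without 1 d replicate 1 or 3 (0.0687 and 0.0533) or 0 d replicate 1 (0.0815), and that of Sqle at 0.75 d without 0.75 d replicate 1 or 2 (0.0805 and 0.0712) or 0 d replicate 1 (0.0665). Replicate 1 of 0 d had the lowest signal of its group for 11 of the 16 enzymes. Counting livers in place of the test, every later liver lay above every 0 d liver for 12 enzymes at 1 d (16.7% of all genes), 11 at 1.5 d (17.5%), 12 at 2 d (15.1%), 13 at 3 d (18.3%) and 10 at 4 d (12.1%). None did so at 7 d or 14 d, where 6.96% and 8.66% of all genes did.

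At 4 d the medians had not returned: the 16 enzymes had a median difference of 0.50 and all 16 lay above 0 on average, although none passed the test. Sqle had 10.45, 10.08 and 9.94 at 4 d, against 8.37, 9.05 and 8.63 at 0 d (1.48 ± 0.48, adjusted p = 0.0999). At 7 d the median was -0.04 and at 14 d it was 0.06. Replicate 1 of 14 d had the highest signal of its group for 15 of the 16 enzymes, with Hmgcs1 at 12.45 against 10.82 and 10.85 in the other 14 d livers.

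Tm7sf2, a sterol reductase that acts after the lanosterol demethylase, fell at 7 times, 0.25 d to 3 d. At 0.25 d and 0.5 d other synthesis enzymes fell as well, and at 0.75 d so did Sc5d (-0.77). That Sc5d call was lost without 0.75 d replicate 2 or 3 (adjusted p = 0.0544 and 0.132) or 0 d replicate 2 or 3 (0.0945 and 0.0851). At 1 d, 1.5 d, 2 d and 3 d Tm7sf2 was the 1 of the 16 enzymes that fell. It was lowest at 0.75 d. Its signal was 9.67, 9.14 and 9.08 at 0.75 d and 9.54, 10.18 and 10.09 at 1 d, against 10.82, 10.67 and 10.53 at 0 d. Both later groups lay wholly below 0 d, by -1.38 ± 0.16 (adjusted p = 4.61e-07) and -0.74 ± 0.16 (adjusted p = 0.00173). Cyp51, the step before it, was 1.36 above 0 d at 1 d. At 4 d Tm7sf2 had 10.61, 10.83 and 10.79 and no longer differed past the threshold (0.07 ± 0.16). The calls from 0.25 d to 2 d held under every alternative, while that at 3 d (adjusted p = 0.0317) was lost if 3 d replicate 1 or 2 (0.0646 and 0.166) was left out, and likewise without 0 d replicate 1 or 2 (0.125 and 0.0724). Its rise between 0.75 d and 1 d, the 1 call of the set over that step (0.594% of all genes rose and 0.579% fell), had an adjusted p of 0.0454 and was lost without 0.75 d replicate 2 or 3 (0.211 and 0.164), without 1 d replicate 2 or 3 (0.230 and 0.207) and in many other settings.

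**Figure D3:**
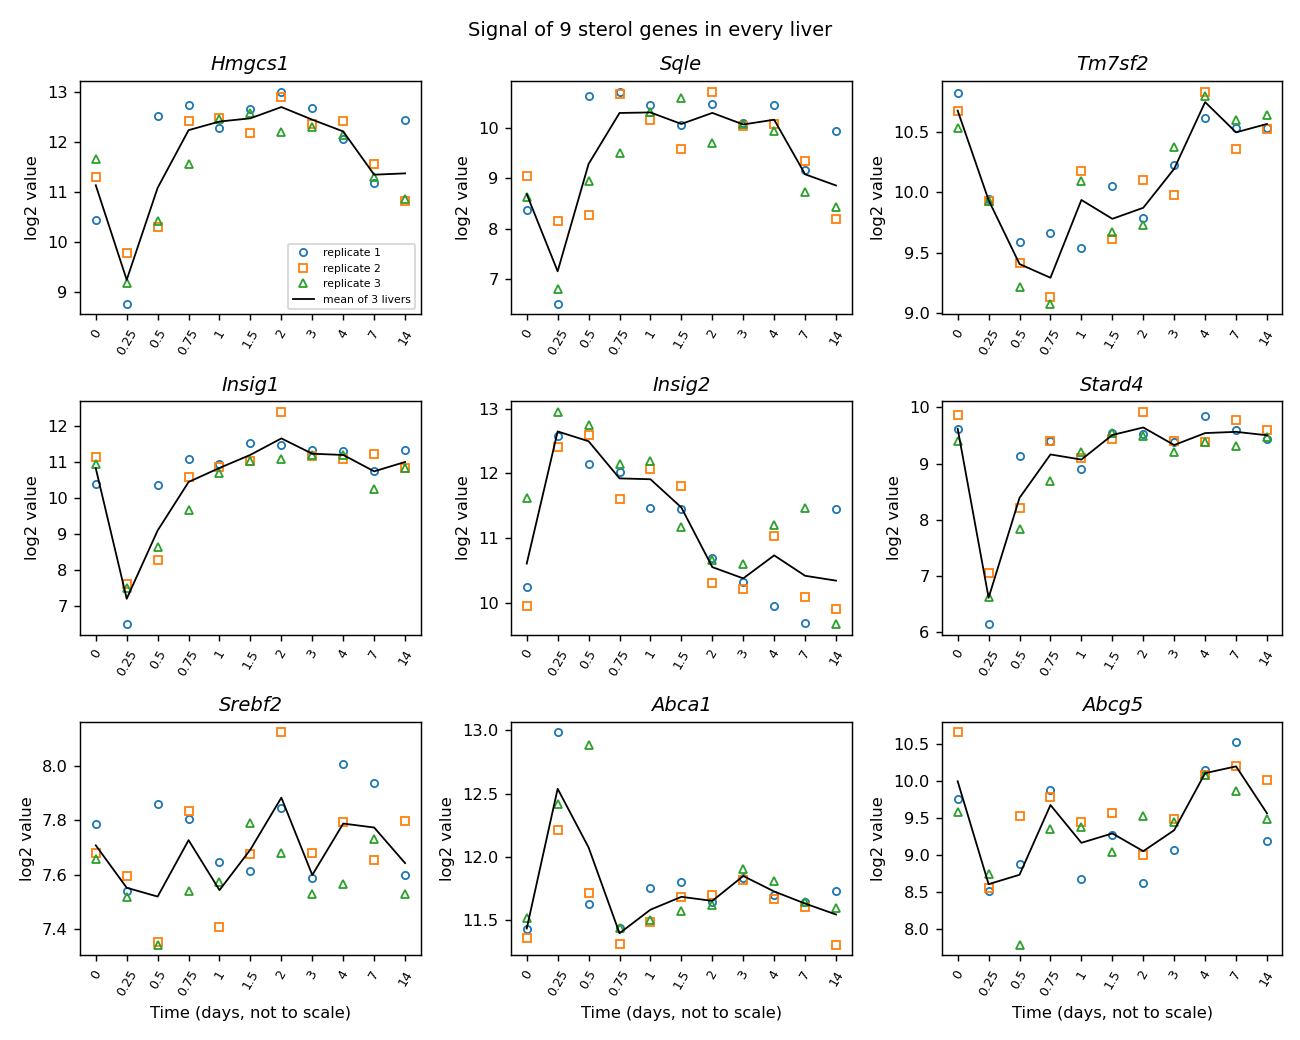
Log2 signal of 9 genes in each of the 33 livers against time in days (not to scale), with a symbol per replicate number and a line through the mean of the 3 livers. Hmgcs1, Sqle, Insig1 and Stard4 dip at 0.25 d, Insig2 and Abca1 peak there, Tm7sf2 is lowest at 0.75 d, and replicate 1 of 0.5 d lies apart for Hmgcs1, Sqle and Insig1.

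Of the genes of SREBP control, both INSIG genes moved early, in opposite directions. Insig1, which is itself a target of SREBP, had 6.51, 7.61 and 7.52 at 0.25 d, against 10.40, 11.14 and 10.97 at 0 d. Every 0.25 d liver lay more than 2 log2 units below every 0 d liver. The difference was -3.63 ± 0.41 (adjusted p = 1.85e-07), a 12.3-fold lower level and the largest of the 31 genes. At 0.5 d it had 10.39, 8.30 and 8.64, with replicate 1 just below the lowest 0 d liver (-1.73 ± 0.41, adjusted p = 0.00159). It did not pass later, and its mean at 2 d was 0.83 ± 0.41 above 0 d (adjusted p = 0.150).

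Insig2, whose product also holds SCAP in the endoplasmic reticulum and whose transcript is known to follow a daily rhythm in mouse liver, had 12.58, 12.41 and 12.95 at 0.25 d and 12.15, 12.59 and 12.74 at 0.5 d, against 10.24, 9.95 and 11.62 at 0 d. All 6 early livers lay above all 0 d livers. The differences were 2.04 ± 0.44 (adjusted p = 0.000507) at 0.25 d and 1.89 ± 0.44 (adjusted p = 0.00137) at 0.5 d, levels 4.13-fold and 3.71-fold higher. Insig2 also rose at 0.75 d (1.32 ± 0.44, adjusted p = 0.0308) and 1 d (1.30 ± 0.44, adjusted p = 0.0395), when 0.75 d replicate 2 at 11.60 and 1 d replicate 1 at 11.46 lay below 0 d replicate 3. The call at 0.75 d was lost if 0.75 d replicate 1 or 3 (adjusted p = 0.0853 and 0.102) was left out, and likewise without 0 d replicate 1 or 2 (0.114 and 0.159). The call at 1 d was lost if 1 d replicate 2 or 3 (0.109 and 0.129) was left out, and likewise without 0 d replicate 1 or 2 (0.143 and 0.198).

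The window of Insig2 on chromosome 1 (chr1:121332540-121332839, minus strand, RefSeq GRCm38.p6) is shown because this gene rose where most sterol genes fell. It holds 3 CCAAT motifs, in capitals, 136, 46 and 29 bases before the start, and no match to the sterol element. Only an Insig2 window with the CCAAT motif could be shown, and 42.3% of the tested genes with a window hold that motif. A part of the motif in the direction of change was not tested.
Insig2: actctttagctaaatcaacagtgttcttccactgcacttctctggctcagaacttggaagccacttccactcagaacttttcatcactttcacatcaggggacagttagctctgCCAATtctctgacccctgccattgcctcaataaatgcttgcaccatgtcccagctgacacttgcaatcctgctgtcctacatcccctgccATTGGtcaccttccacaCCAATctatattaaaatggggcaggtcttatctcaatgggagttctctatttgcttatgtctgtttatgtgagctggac

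Clock genes were followed beside Insig2. Of 13 clock genes, 2 rose and 6 fell at 0.25 d (17.2% and 28.8% of all genes), 1 rose and 5 fell at 0.5 d (15.8% and 19.4%), and 2 rose and 6 fell at 1 d (8.16% and 9.55%). The clock activator Arntl had 7.95, 7.62 and 7.31 at 0.25 d, against 5.28, 5.39 and 8.12 at 0 d, and the clock output gene Dbp had 5.13, 7.58 and 7.48 at 0.25 d, against 11.05, 11.65 and 8.36 at 0 d. Replicate 3 of 0 d stood apart from its group in both genes, as it did in Insig2. Replicate 1 of 14 d stood apart too, with Arntl at 7.50 beside 5.51 and 6.11, and Insig2 at 11.45 beside 9.90 and 9.67. On 7 d replicate 3 Insig2 was 11.47 beside 9.69 and 10.09. Without 0 d replicate 3 the difference of Insig2 was 2.55 at 0.25 d (adjusted p = 8.00e-05) and 1.81 at 1 d (adjusted p = 0.00599). With 0 d replicate 3 and 14 d replicate 1 both left out, a setting added after the data were seen, 26 genes of the set passed at 0.25 d, 14 at 0.5 d, 12 at 1 d and 11 at 2 d. That setting kept 7 d replicate 3 and 0.25 d replicate 1. The part of the time of day in these results was not tested, since the labels do not give it.

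**Figure D4:**
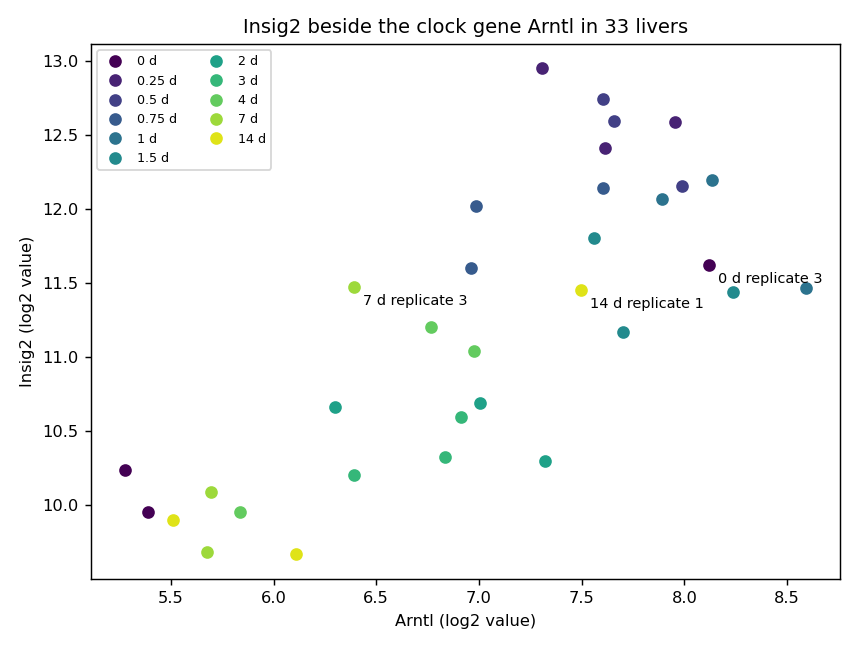
Log2 signal of Insig2 (vertical) against that of the clock gene Arntl (horizontal) in the 33 livers, coloured by time in days. Of the 0 d livers, 2 lie at the lower left, at Arntl 5.28 and 5.39, and replicate 3 lies at 8.12 with Insig2 at 11.62.

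The other control genes of the set, Scap and Srebf2, moved less. Scap, the escort of SREBP, had 9.05, 9.42 and 9.77 at 0.25 d, against 10.31, 10.74 and 10.19 at 0 d, and the groups did not overlap. Its difference was -0.998 ± 0.17 at 0.25 d (adjusted p = 3.91e-05), -0.93 ± 0.17 at 0.5 d, -0.72 ± 0.17 at 0.75 d and -0.67 ± 0.17 at 1 d, and the call at 1 d (adjusted p = 0.00665) was lost without 0 d replicate 2 (0.0624). Srebf2 had 7.54, 7.60 and 7.52 at 0.25 d, against 7.79, 7.68 and 7.66 at 0 d, and its difference did not pass (-0.16 ± 0.13, adjusted p = 0.334). Its time means spanned a range of 1.29-fold on the probe set used, beside 22.0-fold for Insig1. Among 6 related genes of SREBP processing and sterol-regulated degradation, 5 fell and 0 rose at 0.25 d, where 28.8% and 17.2% of all genes did. Srebf1, which encodes the relative of SREBP2 that drives fatty acid synthesis, had 7.65, 7.49 and 7.04 at 0.25 d, against 10.83, 11.57 and 10.98 at 0 d. The site 1 protease Mbtps1, which cleaves SREBP in the Golgi, differed by -0.44 ± 0.10 (adjusted p = 0.000762), and Rnf139, a ubiquitin ligase of the endoplasmic reticulum, by -0.55 ± 0.08 (adjusted p = 6.48e-06).

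Genes of uptake and movement fell in the main. At 0.25 d 4 of 5 fell and 1 rose, where 28.8% and 17.2% of all genes did. Stard4, a soluble carrier that moves sterols between membranes and a known SREBP target, had 6.14, 7.06 and 6.63 at 0.25 d, against 9.61, 9.86 and 9.40 at 0 d. Every 0.25 d liver lay more than 2 log2 units below every 0 d liver, and the difference was -3.01 ± 0.24 (adjusted p = 1.99e-09), an 8.05-fold lower level. At 0.5 d Stard4 had 9.13, 8.21 and 7.84, with replicate 1 again closest to 0 d (-1.23 ± 0.24, adjusted p = 0.000291). It did not pass later.

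The lysosomal pair that releases cholesterol from taken-up lipoproteins fell at 4 times each. Npc2, the soluble partner, had 9.39, 9.37 and 9.16 at 0.5 d, against 9.95, 10.36 and 10.08 at 0 d (-0.83 ± 0.13, adjusted p = 1.50e-05), and it also fell at 0.25 d, 0.75 d and 1 d. The call at 1 d (adjusted p = 0.0316) was lost if 1 d replicate 2 or 3 (0.1004 and 0.0894) was left out, and likewise without 0 d replicate 2 (0.188). Npc1, the membrane partner, had 7.96, 8.05 and 8.13 at 1.5 d, against 9.32, 9.56 and 8.82 at 0 d. These groups did not overlap, and the difference of -1.18 ± 0.29 (adjusted p = 0.00495) held under every alternative. At 0.25 d Npc1 had 6.99, 8.35 and 8.65 (-1.23 ± 0.29, adjusted p = 0.00122), which spread widely. It fell at 1 d and 2 d too, where the calls were lost without any 1 d liver (adjusted p between 0.0661 and 0.0881), without 2 d replicate 1 or 2 (0.138 and 0.0941), or without 0 d replicate 1 or 2 (0.0897 and 0.139 at 1 d, 0.112 and 0.173 at 2 d).

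Scarb1, the receptor that takes cholesteryl esters from high-density lipoprotein, had 9.26, 9.41 and 9.38 at 0.25 d, against 9.93, 10.06 and 9.74 at 0 d (-0.55 ± 0.18, adjusted p = 0.0155). It fell at 0.5 d, 1.5 d and 3 d as well, by -0.63 ± 0.18 at 3 d (adjusted p = 0.0148). The call at 0.25 d was lost if 0.25 d replicate 1 (adjusted p = 0.0569) was left out, and likewise without 0 d replicate 2 (0.0647), and that at 3 d without 3 d replicate 1 (0.0850) or 0 d replicate 2 (0.0677). The call at 0.5 d was lost if 0.5 d replicate 3 (0.191) was left out, and likewise without 0 d replicate 1 or 2 (0.0613 and 0.101), and that at 1.5 d without 1.5 d replicate 1 or 3 (0.254 and 0.0686), without 0 d replicate 1 or 2 (0.101 and 0.150) and, narrowly, without some arrays of other times. Mylip, a ubiquitin ligase that LXR raises and that marks lipoprotein receptors for breakdown, had 8.53, 8.66 and 8.39 at 0.25 d, against 8.03, 7.85 and 8.27 at 0 d. The groups did not overlap, and the rise of 0.48 ± 0.14 (adjusted p = 0.00675) held under every alternative. Lcat, the plasma enzyme that esterifies cholesterol on high-density lipoprotein, rose at 0.5 d alone, with 11.75, 11.88 and 11.75 at 0.5 d, against 11.40, 11.54 and 11.40 at 0 d (0.34 ± 0.13, adjusted p = 0.0339). Leaving out single livers ended that call, both for 0.5 d replicate 2 or 3 (0.105 and 0.0564) and for 0 d replicate 1 or 3 (0.0913 and 0.0911).

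The export genes split. Abca1, which loads cholesterol from cells onto apolipoprotein A-I and is a known LXR target, rose early. Its signal was 12.98, 12.21 and 12.42 at 0.25 d, against 11.43, 11.36 and 11.52 at 0 d, groups that lay well apart (1.10 ± 0.20, adjusted p = 9.54e-05, a level 2.15-fold higher). At 0.5 d it had 11.63, 11.71 and 12.88, so that replicate 3 was far above the other two. The rise at 0.5 d (0.64 ± 0.20, adjusted p = 0.0152) became 0.24 (adjusted p = 0.237) without that liver. Later differences lay between -0.04 and 0.41 up to 4 d and did not pass.

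The window of Abca1 on chromosome 4 (chr4:53159846-53160145, minus strand, RefSeq GRCm38.p6) is shown because it was the only window among the 24 genes with a match to the LXR element, a direct repeat spelled GGTNA, then any 5 bases, then GGTCA, and searched on both strands. The match, in capitals, lies on the other strand 67 bases before the start. Of the genes tested on the arrays that have a window, 0.182% hold one.
Abca1: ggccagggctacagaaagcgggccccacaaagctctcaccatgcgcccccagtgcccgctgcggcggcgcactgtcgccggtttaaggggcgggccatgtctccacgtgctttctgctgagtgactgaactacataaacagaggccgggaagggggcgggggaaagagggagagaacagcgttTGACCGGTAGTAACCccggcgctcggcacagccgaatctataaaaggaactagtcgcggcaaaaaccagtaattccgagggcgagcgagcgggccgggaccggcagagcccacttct

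Abcg5 and Abcg8, the partners in the pump that sends sterols into bile and likewise known LXR targets, fell while Abca1 rose. Abcg5 had 8.51, 8.56 and 8.74 at 0.25 d and 8.88, 9.52 and 7.79 at 0.5 d, against 9.75, 10.66 and 9.58 at 0 d. Both early groups lay below 0 d, by -1.39 ± 0.33 (adjusted p = 0.00114) and -1.27 ± 0.33 (adjusted p = 0.00336), and without 0.5 d replicate 3 the difference at 0.5 d was -0.79 (adjusted p = 0.0540). Abcg8 had 7.91, 7.77 and 8.01 at 0.25 d and 7.59, 8.07 and 7.80 at 1 d, against 8.74, 9.32 and 8.58 at 0 d. Its difference was -0.99 ± 0.20 (adjusted p = 0.000210) at 0.25 d and -1.06 ± 0.20 (adjusted p = 0.000373) at 1 d, and no liver of either time reached the lowest 0 d liver. Abcg8 fell at 6 times in all, up to 3 d without 0.75 d. The calls at 1.5 d and 3 d (adjusted p = 0.0149 and 0.00752) were lost without 0 d replicate 2 (0.126 and 0.0748), and that at 1.5 d also without 1.5 d replicate 3 (0.0520). Abcg5 fell at 2 d as well (-0.95 ± 0.33, adjusted p = 0.0365), a call lost without 2 d replicate 1 or 2 (0.176 and 0.0809) or 0 d replicate 2 (0.231). At 7 d both were at or above 0 d, Abcg8 with 9.36, 8.94 and 8.83.

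The 2 genes lie head to head on chromosome 17, with annotated starts 110 bases apart, and the window of Abcg8 (chr17:84682871-84683170, plus strand, RefSeq GRCm38.p6) is shown because it spans both starts. Capitals mark the stretch from the start of Abcg5, which runs the other way, to that of Abcg8.
Abcg8: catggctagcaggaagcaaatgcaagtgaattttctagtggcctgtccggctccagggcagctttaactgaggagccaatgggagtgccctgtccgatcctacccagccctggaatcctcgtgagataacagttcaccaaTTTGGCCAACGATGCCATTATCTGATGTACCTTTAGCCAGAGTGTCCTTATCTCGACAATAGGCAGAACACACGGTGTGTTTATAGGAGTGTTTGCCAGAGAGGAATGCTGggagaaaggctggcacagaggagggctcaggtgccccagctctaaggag

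The remaining export genes changed little. Nr1h3, which encodes LXR-alpha, had 7.83, 8.28 and 8.02 at 0.25 d, against 8.40, 8.46 and 8.32 at 0 d, and every 0.25 d liver lay below 0 d. The fall of -0.35 ± 0.13 (adjusted p = 0.0303) was -0.20 under quantile normalization (adjusted p = 0.197), and it was lost if 0.25 d replicate 1 or 3 (0.180 and 0.0702) was left out, and likewise without 0 d replicate 1 or 2 (0.0637 and 0.0903). Abcg1, which passes cholesterol from cells to high-density lipoprotein, had 7.71, 7.68 and 7.70 at 3 d, against 7.19, 7.26 and 7.19 at 0 d (0.49 ± 0.16, adjusted p = 0.0315). That call was lost without any single liver of 3 d or 0 d (adjusted p between 0.0589 and 0.0798), and the difference was 0.16 with the mean of the probe sets (adjusted p = 0.379). Abca1 and Abcg1 are also expressed in macrophages. Of 10 macrophage markers 2 rose and 1 fell at 0.25 d (17.2% and 28.8% of all genes), and 5 rose and 0 fell at 3 d (10.2% and 10.9%). Their mean log2 signal lay between 7.46 and 7.99 at 0.25 d and between 8.49 and 8.98 at 3 d, against 7.49 and 7.96 at 0 d. Of 3 neutrophil markers, 2 rose at 0.25 d and at 3 d (17.2% and 10.2% of all genes). S100a8 had 7.45, 7.62 and 6.51 at 0.25 d, against 4.60, 4.89 and 4.50 at 0 d. The part of these cells in the results was not tested.

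**Figure D5:**
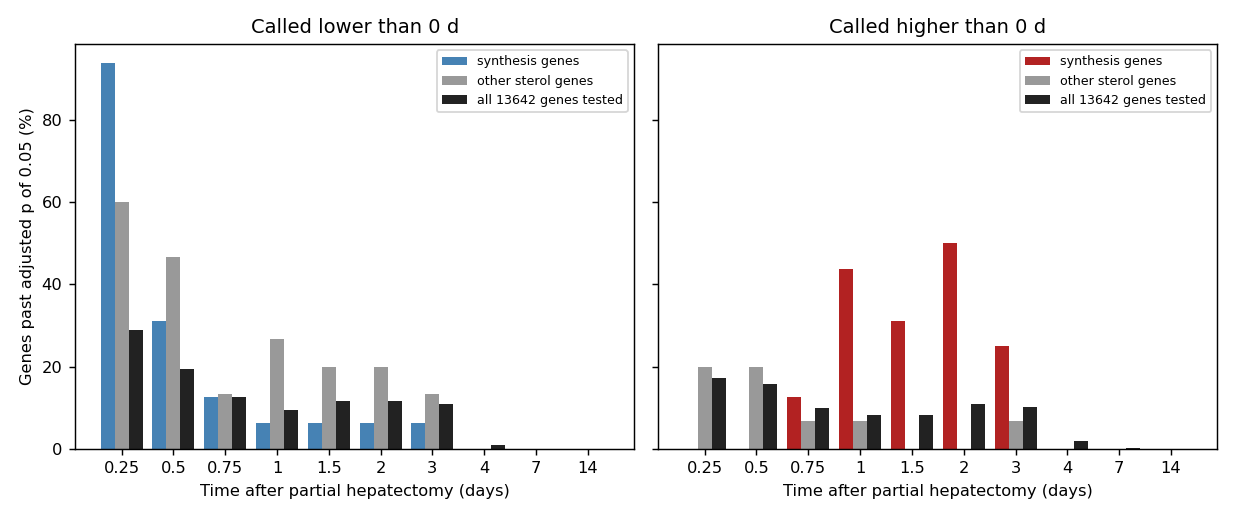
Percent of genes past the adjusted p of 0.05 against 0 d (vertical) at each later time in days (horizontal), lower in the left panel and higher in the right, for the 16 synthesis enzymes, the other 15 genes of the set and all 13642 genes tested. At 0.25 d 93.8% of the synthesis enzymes and 60% of the other genes were lower (28.8% of all genes), and at 2 d 50% and 0% were higher (11% of all genes).

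The counts of synthesis enzymes and of the other genes of the set are given side by side for 2 d, the time with the most rises among the enzymes. At 2 d 8 of 16 enzymes rose and 1 fell, while of the other 15 genes 0 rose and 3 fell, Npc1, Abcg5 and Abcg8. Of these 12 calls, the rise of Pmvk and the falls of Tm7sf2 and Abcg8 passed under every alternative. Without 2 d replicate 1, 4 genes of the set passed. Of all genes tested, 11% rose and 11.6% fell at 2 d. The median differences at 2 d were 0.96 over the enzymes and -0.11 over the other genes, where it was -0.04 over all genes tested. Whether the groups differ was not tested beyond these counts.

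A wider list of sterol genes, drawn from the same pathways, held 25 tested genes. Of these 8% rose and 52% fell at 0.25 d, against 17.2% and 28.8% of all genes, and 16% rose and 40% fell at 0.5 d, against 15.8% and 19.4%. At 0.75 d 3 rose and 5 fell, or 12% and 20% (9.84% and 12.7% of all genes), at 1 d 0 rose and 4 fell (8.16% and 9.55%), and at 1.5 d 0 rose and 7 fell (8.33% and 11.7%). Counts at 2 d were 1 and 5 (11% and 11.6%), at 3 d 1 and 4 (10.2% and 10.9%), and none passed at 4 d or later. Msmo1, the methyl sterol oxidase that works ahead of Nsdhl, had 8.17, 9.46 and 8.73 at 0.25 d, against 10.98, 11.56 and 10.90 at 0 d (-2.36 ± 0.44, adjusted p = 0.000103), and at 0.5 d its replicate 1 was 11.91 beside 9.39 and 10.05. Dhdds and Nus1, the subunits of the dolichol enzyme that lengthens isoprenoids for protein glycosylation, differed by -0.10 ± 0.10 (adjusted p = 0.421) and 0.61 ± 0.12 (adjusted p = 0.000306) at 0.25 d, so that Nus1 alone passed, and both rose at 0.5 d, by 0.91 ± 0.10 (adjusted p = 1.60e-07) and 0.80 ± 0.12 (adjusted p = 1.53e-05). Dhdds had 8.09, 8.29 and 8.13 at 0.5 d, against 7.37, 7.28 and 7.14 at 0 d.

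Among genes of storage and movement, Nceh1, a hydrolase of cholesteryl esters, had 9.92, 9.30 and 9.38 at 0.25 d, against 8.51, 7.72 and 8.25 at 0 d (1.38 ± 0.25, adjusted p = 9.50e-05). The sterol carrier Osbp had 10.28, 10.10 and 10.52 at 0.5 d, against 9.56, 9.53 and 9.62 at 0 d (0.73 ± 0.10, adjusted p = 1.65e-06). Both groups lay wholly above 0 d. Stard5, a sterol-binding relative of Stard4, fell by -0.99 ± 0.24 at 0.25 d (adjusted p = 0.00148). Lpcat3, a phospholipid enzyme and known LXR target, had 9.06, 9.35 and 9.60 at 0.25 d, against 10.22, 10.59 and 10.45 at 0 d (-1.08 ± 0.17, adjusted p = 1.88e-05).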

How the data were processed

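RNA from 33 livers was hybridised to Affymetrix mouse arrays. The deposited values are log2 signals made with RMA, per the submitters' processing notes; its version is not given in the sources used here. Array values have no read depth, and 3 livers per time limit the precision. Probe sets with exactly 1 symbol in the platform annotation were kept (34945 of 45101), the one with the highest mean stood for a gene, and genes with a log2 signal of at least 5 on at least 3 arrays were tested (13642 of 18193). limma 3.58.1 in R 4.3.3 fitted a mean per time over all 33 arrays, with moderated two-sided tests and Benjamini-Hochberg adjustment over all tested genes. The script was tested on simulated data. The labels call the livers biological replicates, and the main fit did not pair livers by replicate number. Python 3.11.15 with matplotlib 3.10.9 made the figures.

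The members and all gene lists were chosen with earlier results of these data known. Any member could be named, array values were fixed for the member with the largest difference in each role (Nsdhl, Insig1, Stard4, Lcat, Abcg5), and other genes came from the related, clock and marker lists. Array values of all other genes were chosen after their values were seen. The labels' description speaks of fat cells where tissue and source give liver. Alternatives covered the filter, probe set rule, scaling, variance model, replicate block, adjustment, arrays fitted and each array left out. Leaving out both 0 d replicate 3 and 14 d replicate 1, for their clock genes, was added after the data were seen.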

Additional observations from a re-analysis of the deposited data

How the results depend on the processing

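Against 0 d and over the steps between early times, 109 calls were made for the 31 genes, and 41 of them passed under every alternative. Over 4778 recomputed values of single genes, 4404 stayed on the same side of the threshold, 374 no longer passed and 0 changed sign. Leaving out each array in turn gave 23 to 28 called genes at 0.25 d, 9 to 23 at 0.5 d, 4 to 9 at 0.75 d, 4 to 16 at 1 d, 2 to 11 at 1.5 d, 4 to 16 at 2 d, 2 to 10 at 3 d, 0 to 1 at 4 d and 0 at 7 d and 14 d. It gave 10 to 18 for 0.5 d against 0.25 d, 0 to 15 for 0.75 d against 0.5 d, 0 to 2 for 1 d against 0.75 d, and 29 to 31 in the F-test. At 4 d the 1 call came without 0.5 d replicate 3, 2 d replicate 2 or 2 d replicate 3. When a fit held just the 6 arrays of its comparison, which leaves fewer samples, 7 genes passed at 0.5 d, 17 at 3 d, 1 at 4 d, 0 for 0.5 d against 0.25 d and 0 for 0.75 d against 0.5 d. With array weights 11 passed at 0.75 d, 1 at 4 d, 5 for 0.75 d against 0.5 d and 3 for 1 d against 0.75 d. The mean of the probe sets gave 8 at 1 d, and joint adjustment over all comparisons with 0 d gave 3 at 4 d. For 1 d against 0.75 d, 0 passed with no filter, with quantile normalization or with the replicate block. The causes were not tested. Over 165 same-numbered pairs of livers the median correlation of deviations was 0.0179, against -0.0101 for pairs of other numbers. Of the 165, 33 exceeded 0.1, and 15 of 33 arrays correlated best with their own number. These values cannot settle whether the numbers pair livers across times. The fit with the replicate block kept 107 of the 109 calls.

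Scaling moved the split of all called genes, higher and lower. At 0.75 d it was 1342 and 1734 as deposited and 1590 and 1492 after quantile normalization, so the larger direction turned. For 1 d against 0.75 d it was 81 and 79 as deposited, 66 and 118 after quantile normalization and 77 and 49 with a common median. At 7 d it was 17 and 8, then 14 and 2, and 14 and 12. At 14 d it was 2 and 0 as deposited and 2 and 5 with a common median. Signals near background understate folds.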
